A study of Mus musculus with 7 samples.

Results

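Nanog KO fibroblasts carrying the reprogramming factors OSKM (Pou5f1, also called Oct4, Sox2, Klf4 and Myc) were compared with WT mouse embryonic fibroblasts (MEFs). The WT MEFs carried the same 4 factors and were given doxycycline (DOX) to switch them on. The comparison uses 2 of the 7 samples of a study of the H3K27 demethylase Utx in reprogramming, each hybridised to 1 Affymetrix array, and covers 13562 genes with a row of their own. The arrays compared are defined by their labels, though the comparison and its gene lists were chosen with earlier results of these data known. Values are the Nanog KO array minus the WT + DOX array, in log2 units, after the array medians had been aligned. There were no replicates, so no difference below was tested, and "higher" or "lower" describes these 2 arrays. The Nanog KO fibroblasts were derived from Nanog-/- embryonic stem cells (ESCs) and had received an OSKM lentivirus 8 days earlier. The WT cells were V19-OSKM MEFs with an intact Utx gene (Utx +/Y) and DOX, for a time that the labels do not state. The remaining 5 arrays, used for levels only, held V19-OSKM MEFs without DOX (WT and Utx -/Y), Utx -/Y MEFs with DOX, and V6.5 ESCs (WT and Utx -/Y). All 7 samples carry the same growth label, an ESC medium.

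The genotype at Nanog, the cell line and the way the factors were delivered all differ between the arrays. The normalization and the sex of the cells possibly differ too, and these cannot be told apart. The Nanog KO fibroblasts were made from ESCs and not described as taken from several embryos, and they are represented by 1 array. The labels give no share of cells that received the lentivirus, and a Nanog KO fibroblast array without the factors is not analysed here. In bulk RNA, fewer cells of a type and less RNA per cell cannot be told apart.

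Reprogramming of fibroblasts by OSKM passes through an early loss of mesenchymal gene expression and a gain of epithelial genes, known as a mesenchymal to epithelial transition, before the pluripotency network of ESCs is switched on. Nanog encodes a homeodomain transcription factor of that network, silent in fibroblasts and active in ESCs, and is known for its part in the last steps towards pluripotency. Fibroblasts themselves are marked by fibrillar collagens, proteoglycans and receptors such as Pdgfra and Pdgfrb.

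The deposited values are log2 signals summarised per probe set with the RMA procedure. The Nanog KO array stood apart in scale, with a deposited median of 8.55 log2 units against 7.81 on the WT + DOX array and 7.68 to 7.84 over all 6 others. All arrays were therefore shifted to the median of the WT + DOX array, which moved the Nanog KO values down by 0.74. A gene counts as above the floor where its higher value exceeds 7.25, the 40th percentile of all aligned values. The Utx KO MEF labels did not match the level of Pou5f1, which was 5.14 in the library labelled Utx KO MEFs with DOX and 11.40 in the library labelled Utx KO MEFs without DOX. Those libraries are therefore called by their labels, and no statement on DOX is drawn from them. Over all rows, the correlation of the Nanog KO array with the others was 0.838 with WT MEFs + DOX, 0.898 with WT MEFs without DOX, 0.908 and 0.911 with the libraries labelled Utx KO MEFs without and with DOX, and 0.783 and 0.736 with WT and Utx KO ESCs. These are descriptions across rows of single arrays.

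A difference of at least 2-fold was counted as higher or lower. Among 9785 genes above the floor, 1281 (13.1%) were higher in Nanog KO fibroblasts than in WT MEFs + DOX, 1299 (13.3%) were lower, and 7205 lay between. The median difference was -0.06, and the middle of the distribution ran between quartiles of -0.56 and 0.49. The counts of list members below are to be read beside these shares of 13.1% and 13.3%. At a 4-fold threshold 525 genes were higher and 475 lower. Of the higher genes 723 were under the floor in WT MEFs + DOX, and of the lower genes 660 were under it in Nanog KO fibroblasts, so that many folds are lower bounds, computed against the floor. A gene that passed the floor on 1 array alone passed it through its higher value, so the counts of list members below describe the lists and support nothing by themselves; list medians cover all measured members. With the values as deposited and not aligned, 4032 genes were higher and 599 lower, which is 87.1% of the called genes higher against 49.7% after alignment.

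**Figure D1:**
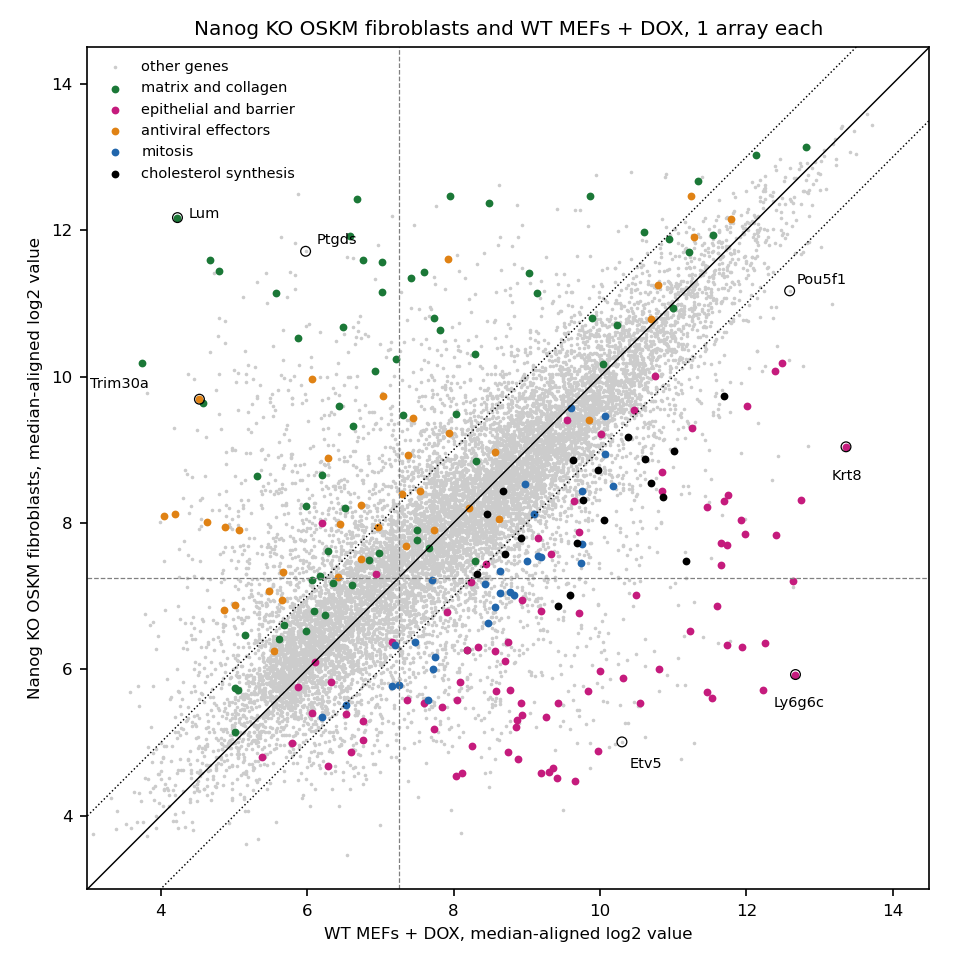
Median-aligned log2 values of 13562 genes, Nanog KO OSKM fibroblasts on the vertical axis and WT MEFs + DOX on the horizontal axis, 1 array each. Solid line, equality; dotted lines, 2-fold; dashed lines, the floor of 7.25. Matrix and collagen genes such as Lum lie above the diagonal and epithelial genes such as Krt8 and Ly6g6c below it.

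The genes with the largest differences came from several lists. Among genes above the floor on both arrays, the 10 with the largest difference upwards were Apod, Rcn3, Col1a2, Lbp, Scara3, Col14a1, Dlk1, Col1a1, Vcan and Lgals3bp. They ran from 24.5-fold for Apod (12.07 in Nanog KO fibroblasts, against 7.46 in WT MEFs + DOX), a carrier of lipids, to 12.9-fold for Lgals3bp (11.61 against 7.92), a secreted glycoprotein induced by interferon. Col1a2, Col14a1, Col1a1 and Vcan belong to the collagen and matrix lists, and the other 6 to none of the fibroblast lists. The 10 largest downwards were Podxl, Nccrp1, Krt8, Krt14, Sprr1a, Cdh1, Nr4a1, Tgm3, Zfp57 and Dsp. They ran from 23.5-fold for Podxl (7.84 against 12.40), a sialomucin of epithelial surfaces, to 14.7-fold for Dsp (8.04 against 11.92), the desmosome protein desmoplakin. Of these, 8 belong to the epithelial lists and Nr4a1 and Zfp57 do not. Where only the Nanog KO array exceeded the floor, the largest bounds were those of Hmcn1, Thbs2, Serpinf1, Lum, Col3a1, Penk, Gpc3, Fndc1, Ptgds and Plagl1, from at least 37.7-fold for the matrix protein Hmcn1 (12.49 against 5.87) to at least 20.8-fold for Plagl1 (11.63 against 6.55). Where only the WT + DOX array exceeded it, Ly6g6c, Klk10, Mall, Tgm1, Cyp4f39, Mal2, Krt90, Sfn, Gpr50 and St14 led, from at least 42.7-fold for Ly6g6c (5.93 against 12.67) to at least 20.4-fold for St14 (6.87 against 11.60), the membrane protease matriptase.

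The targeted gene and the factors were examined first. Nanog had 5.82 in Nanog KO fibroblasts, 5.48 in WT MEFs + DOX and 5.43 in WT MEFs without DOX. It reached 12.28 in WT ESCs and 12.57 in Utx KO ESCs, so both reprogramming arrays lay under the floor and the level does not check the knockout label. Where the probes lie relative to the deleted part is not stated in the labels. Pou5f1, the POU factor of OSKM, had 11.17 in Nanog KO fibroblasts and 12.59 in WT MEFs + DOX, against 8.20 in WT MEFs without DOX and 12.14 in WT ESCs. The lentiviral cells were thus 2.68-fold below the DOX-treated cells in Pou5f1 and, on this probe set, above the WT MEFs that had no DOX. Myc had 10.08 in Nanog KO fibroblasts and 12.21 in WT MEFs + DOX, a 4.38-fold lower value, with 10.99 in WT MEFs without DOX. Klf4 had 9.72 in Nanog KO fibroblasts and 8.89 in WT MEFs + DOX, and Sox2 had 5.67 and 5.31 there, under the floor on both arrays and far from the 11.26 of WT ESCs. Endogenous and vector-borne transcripts cannot be told apart in these values, and a vector without the probed part of a transcript would not be measured.

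The pluripotency network was largely silent on both arrays. Of 46 measured members 18 were above the floor on either array, of which 2 were higher and 10 lower in Nanog KO fibroblasts, and the list median was -0.47. None of the 8 measured pluripotency markers (Nanog, Esrrb, Zfp42, Dppa5a, Tdgf1, Utf1, Sall4 and Tcl1) was above the floor in Nanog KO fibroblasts, and 1, Sall4, was in WT MEFs + DOX, with means of 5.28 and 5.41. Both ESC arrays had all 8 above it. Fgf4, a growth factor of ESCs, had 5.92 in Nanog KO fibroblasts and 9.21 in WT MEFs + DOX. L1td1, an RNA-binding protein of ESCs, had 6.61 and 9.0 there, and the ETS factor Etv5 had 5.01 and 10.30. Tet1, which oxidises 5-methylcytosine, went the other way, with 8.88 in Nanog KO fibroblasts and 6.83 in WT MEFs + DOX, and 9.19 in WT MEFs without DOX. Manba, a lysosomal mannosidase that the list also holds, was 2.24-fold higher, at 9.28 against 8.12. The list median depended on scale: it was 0.27 with the arrays not aligned.

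Markers of fibroblasts were present throughout the Nanog KO array and partly absent from the WT + DOX array. All 12 markers were above the floor in Nanog KO fibroblasts, with a mean of 11.19, against 7 of 12 and a mean of 7.67 in WT MEFs + DOX, where Col3a1, Pdgfra, Pdgfrb, Lum and Postn were under it. WT MEFs without DOX had 12 of 12 with a mean of 11.30. The fibroblast label was therefore met by every marker on the Nanog KO array, whereas the WT + DOX array, labelled MEFs, also had all 8 simple epithelial markers above the floor.

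Matrix genes made up the largest group on the higher side. Of 36 matrix glycoproteins and proteoglycans above the floor (39 measured), 24 were higher and 0 lower, with a list median of 1.67 beside -0.06 over all genes. Lumican (Lum), a small leucine-rich proteoglycan that binds collagen fibrils, had 12.17 in Nanog KO fibroblasts and 4.23 in WT MEFs + DOX. It had 9.82 in WT MEFs without DOX and 3.95 in WT ESCs, so the Nanog KO value was also the highest of the 7. Its relatives osteoglycin (Ogn) at 11.59 against 4.67 and asporin (Aspn) at 11.44 against 4.80 differed by 6.92 and 6.64 in log2 value. Dermatopontin (Dpt), which helps collagen fibrils assemble, had 10.18 in Nanog KO fibroblasts, 3.74 in WT MEFs + DOX and 8.68 in WT MEFs without DOX. At the other end Lamc1, a laminin chain, was level, with a difference of -0.07, and Ltbp1, which holds latent TGF-beta in the matrix, was 1.76-fold lower, at 7.48 against 8.30.

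Collagens and the enzymes that build and trim the matrix followed the same direction. Of 18 collagens above the floor (27 measured), 13 were higher and 1 lower, with a median of 1.31. Col1a2, a chain of type I collagen, had 12.47 in Nanog KO fibroblasts and 7.95 in WT MEFs + DOX, and Col1a1 had 12.37 and 8.49. Col3a1 had 11.92 in Nanog KO fibroblasts, 6.59 in WT MEFs + DOX and 11.48 in WT MEFs without DOX, so for type III collagen the Nanog KO cells were near the untreated MEFs. Col12a1 and Col14a1, collagens that associate with fibrils, were at least 10.7-fold and 15.2-fold higher. The lower collagen was Col17a1, a transmembrane collagen of epithelial hemidesmosomes, at 6.27 against 8.18, and Col6a1 differed by 0.13. Among collagen modification and crosslinking enzymes 13 of 18 were higher and 2 lower (median 1.39), with the crosslinking enzyme Lox at 12.28 against 9.66 and its relative Loxl4 at 7.67 against 10.67. Tll1, a procollagen protease, was at least 7.52-fold higher. Of 19 matrix proteases and inhibitors above the floor, 15 were higher and 0 lower (median 2.32). Cathepsin K (Ctsk), a collagen-degrading protease, had 10.83 in Nanog KO fibroblasts, 6.72 in WT MEFs + DOX and 8.45 in WT MEFs without DOX, and the gelatinase Mmp2 had 12.34, 8.87 and 12.23 in the same order. The inhibitors Timp1 and Timp3 differed by -0.24 and -0.40.

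**Figure D2:**
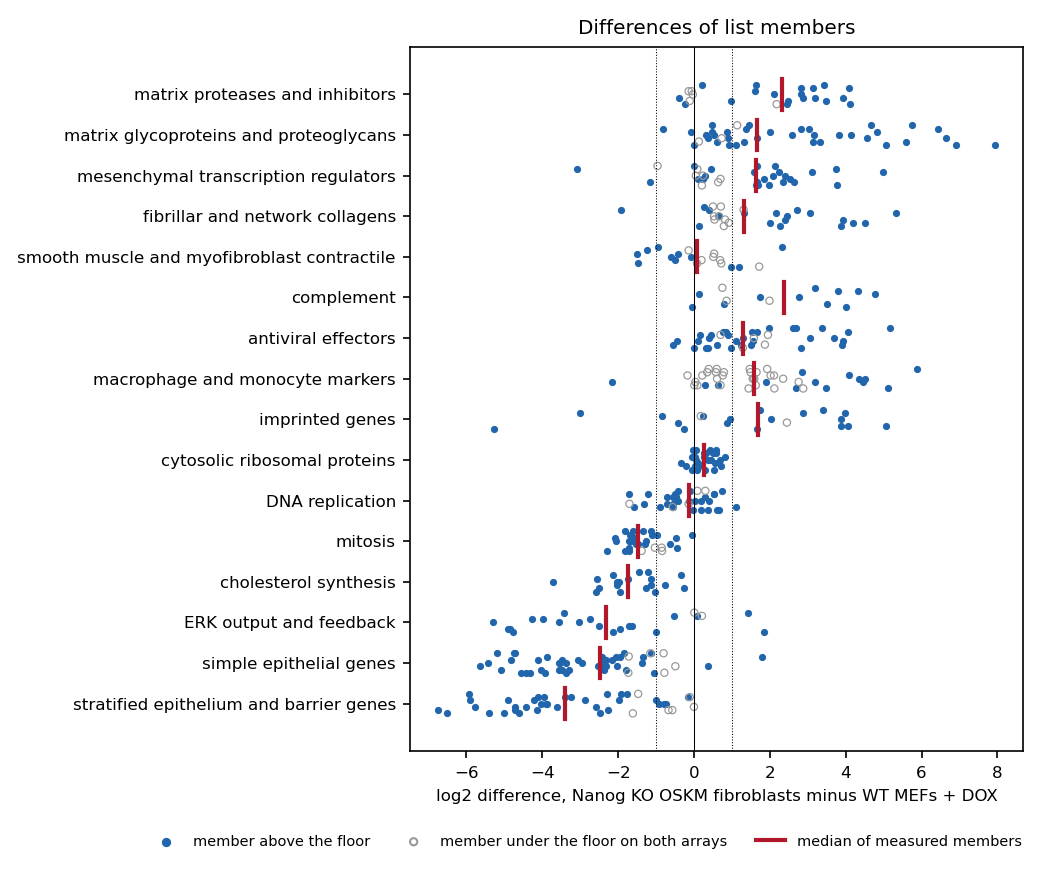
Difference in log2 value, Nanog KO OSKM fibroblasts minus WT MEFs + DOX, for each measured member of 16 gene lists, 1 point per gene. Filled points are above the floor on either array, open points under it on both, and the red bar is the median of all measured members; medians run from 2.37 for complement to -3.40 for stratified epithelium and barrier genes.

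Transcription factors and receptors of mesenchyme were higher as well, with named exceptions. Of 25 mesenchymal transcription regulators above the floor (32 measured) 18 were higher and 2 lower, and the median was 1.64. Osr1, a zinc finger factor of embryonic mesenchyme, had 10.64 in Nanog KO fibroblasts, 5.67 in WT MEFs + DOX and 10.46 in WT MEFs without DOX. Its relative Osr2 had 8.96, 5.22 and 6.37 in that order. Creb3l1, a membrane-bound factor that drives collagen genes, was at least 8.52-fold higher, and the homeobox factor Meox2 at least 2.91-fold. Foxd1 was at least 2.23-fold lower, with 5.33 in Nanog KO fibroblasts against 8.41 in WT MEFs + DOX, and Runx1, a runt domain factor, was 2.24-fold lower. Twist1 and Twist2, which repress epithelial genes, were 3.26-fold and 6.27-fold higher, whereas the homeobox factor Prrx1 was level at 11.39 against 11.38. Of 25 fibroblast surface receptors 15 were higher and 2 lower (median 1.28). Pdgfrb had 10.61 in Nanog KO fibroblasts and 6.18 in WT MEFs + DOX, and Pdgfra had 9.98 and 5.69. Cd44, the hyaluronan receptor, and Eng, a co-receptor for TGF-beta ligands, were 3.15-fold and 2.47-fold lower.

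The contractile genes of smooth muscle and myofibroblasts did not share this direction. Of 11 above the floor (19 measured) 2 were higher and 3 lower, with a median of 0.08. The list's median level was 7.68 in Nanog KO fibroblasts and 7.36 in WT MEFs + DOX, against 10.74 in WT MEFs without DOX. Tagln, an actin-binding protein of smooth muscle, had 7.09 in Nanog KO fibroblasts, 6.89 in WT MEFs + DOX and 12.05 in WT MEFs without DOX. Cnn1 (calponin) had 6.20, 5.69 and 12.08 in that order, and smooth muscle actin Acta2 had 9.96, 8.99 and 12.97. The Nanog KO array was thus close to WT MEFs without DOX in Col3a1 and close to WT MEFs + DOX in Tagln and Cnn1. Desmin (Des) was at least 1.35-fold higher, while tropomyosin Tpm2 and gamma smooth muscle actin Actg2 were 2.81-fold and 2.77-fold lower. A search for the CArG box, bound by serum response factor, found it in the promoters of 2 of 16 contractile genes (12.5%), against 1.81% of all genes with a promoter and 1.61% of the measured genes.

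Epithelial genes gave the largest lower group. Of 44 simple epithelial genes above the floor (50 measured) 42 were lower and 1 higher, with a median of -2.48. E-cadherin (Cdh1), the adhesion molecule of epithelia, had 7.70 in Nanog KO fibroblasts, 11.74 in WT MEFs + DOX, 5.79 in WT MEFs without DOX and 10.90 in WT ESCs. Keratin 8 (Krt8) had 9.04 in Nanog KO fibroblasts, 13.36 in WT MEFs + DOX, 7.07 in WT MEFs without DOX and 10.51 in WT ESCs. Both stood above the level of MEFs without DOX and below that of WT MEFs + DOX. Its partner Krt18 was under the floor in Nanog KO fibroblasts, at 6.77 against 9.72, and so were Epcam at 5.19 against 7.74 and the splicing regulator Esrp1 at 4.58 against 8.11. The tight junction genes Cldn4 and Cldn7 had 6.52 and 4.88 in Nanog KO fibroblasts, against 11.23 and 9.97 in WT MEFs + DOX. Ehf, an epithelial ETS factor, had 4.48 against 9.66. In Nanog KO fibroblasts 3 of 8 simple epithelial markers (Cdh1, Krt8 and Krt19) were above the floor. The exceptions were Krt20, at least 1.68-fold higher (8.00 against 6.21), and P-cadherin (Cdh3), at 7.30 against 6.94.

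Genes of stratified epithelium and the skin barrier were lower by more. Of 35 above the floor (41 measured) 30 were lower and 0 higher, and the median was -3.40. Krt16, a keratin of activated epidermis, had 5.61 in Nanog KO fibroblasts and 11.53 in WT MEFs + DOX. Transglutaminase 1 (Tgm1), which crosslinks the cornified envelope, had 6.36 and 12.26 there, and Cyp4f39, an enzyme of barrier lipids, had 5.72 and 12.23. On the 5 remaining arrays Krt16 lay between 4.33 and 5.19, so its high value was on the WT + DOX array. Of 4 measured stratified markers (Krt14, Krt16, Krt6a and Sfn) 1, Krt14, exceeded the floor in Nanog KO fibroblasts, at 7.42, against all 4 in WT MEFs + DOX. Lamb3, a laminin chain of basement membrane, and the desmosome protein Pkp1 were within 2-fold, at 9.40 against 9.55 and 10.01 against 10.75. WT MEFs without DOX had 5.94 and 6.61 for them. The list's median level was 5.93 in Nanog KO fibroblasts and 5.50 in WT MEFs without DOX. Krt6a and other keratins have near-identical relatives, and their probe sets may take signal from these, which was not tested.

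**Figure D3:**
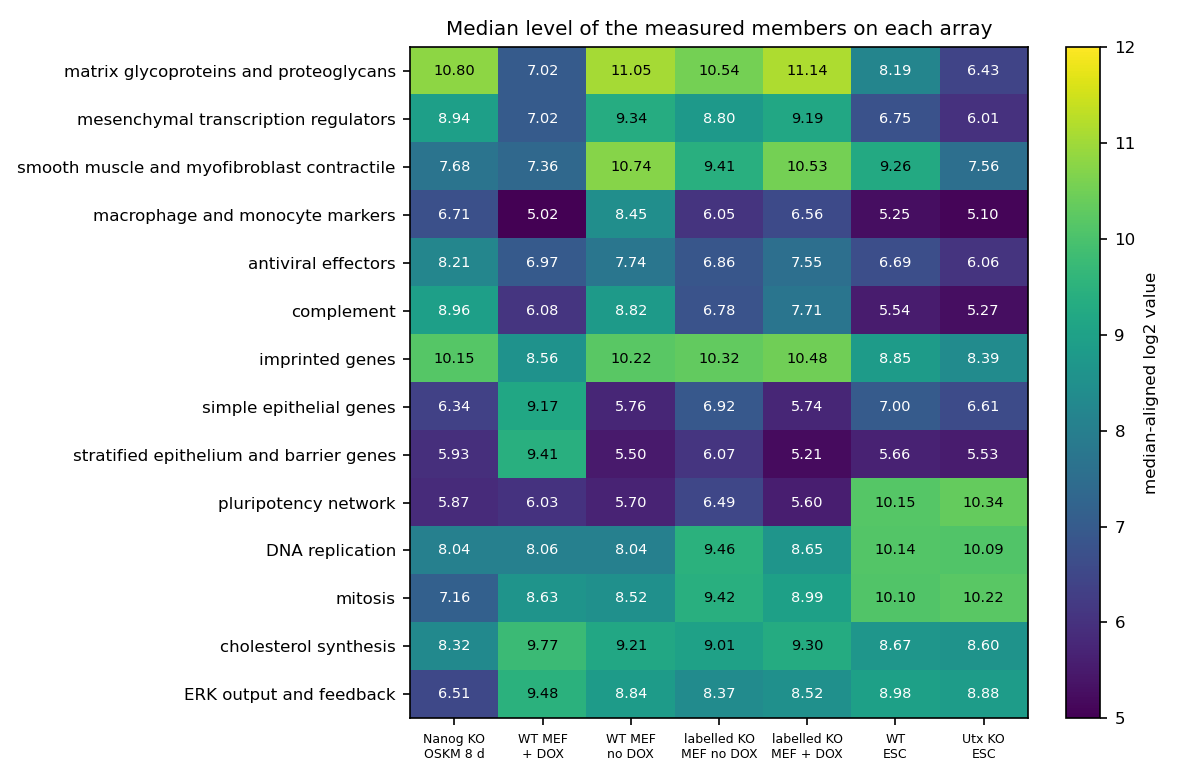
Median aligned log2 level of the measured members of 14 gene lists on each of the 7 arrays, with Nanog KO OSKM fibroblasts in the left column and WT MEFs + DOX next to it. Mitosis genes at 7.16 and ERK output genes at 6.51 have their lowest level in the Nanog KO column, and contractile genes are low on both arrays.

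Mitotic genes were lower in Nanog KO fibroblasts, with 20 of 25 above the floor lower, 0 higher and a median of -1.47. All 25 had their lowest value of the 7 arrays in Nanog KO fibroblasts, whereas 21.0% of all genes above the floor did. All 25 passed the floor on the WT + DOX array and 13 on the Nanog KO array. Cdc20, the activator of the anaphase-promoting complex, had 7.45 in Nanog KO fibroblasts, 9.74 in WT MEFs + DOX, 8.98 in WT MEFs without DOX, 10.05 and 9.0 in the libraries labelled Utx KO MEFs without and with DOX, and 10.39 and 10.45 in WT and Utx KO ESCs. Polo-like kinase 1 (Plk1) had 7.71 in Nanog KO fibroblasts and 9.75 in WT MEFs + DOX, a 4.14-fold lower value. The kinetochore motor Cenpe was at least 1.32-fold lower and the spindle factor Tpx2 at least 2.33-fold. Mad2l1 of the spindle checkpoint was level at 9.57 against 9.61, and Aurkb was 1.36-fold lower. Without alignment the median of the mitotic genes was -0.73.

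DNA replication genes mostly lay within 2-fold of WT MEFs + DOX, and after alignment many were at their lowest of the 7 arrays. Of 30 above the floor 1 was higher and 4 lower, shares near or below the 13.1% and 13.3% of all genes, and the median was -0.14. In 18 of the 30 the Nanog KO array had the lowest aligned value of the 7, against 21.0% of all genes above the floor. Some margins were small, as for Mcm3 at 8.04 against 8.06 in WT MEFs + DOX. This count was not repeated without alignment. Uhrf1, which guides maintenance methylation, had 6.13 in Nanog KO fibroblasts and 7.86 in WT MEFs + DOX, and cyclin E2 (Ccne2) had 5.89 and 7.48. Mcm5, a subunit of the replication helicase, and the replication factor Mcm10 were 2.48-fold and at least 1.05-fold lower. Pold1, a DNA polymerase subunit, was at least 1.72-fold higher, at 8.04 against 6.93, and the clamp loader Rfc5 was 1.66-fold higher. The direction of this median depended on scale, since it was 0.60 without alignment.

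The promoters of the mitotic genes are shown because the members lay in 1 direction together. The sequences are those of RefSeq on build GRCm38.p6, from 250 bases before to 50 after the gene start, written 5′ to 3′ on the strand of the gene, and the capitals mark the CHR letters TTTGAA, searched on both strands.
Cdc20 (chr4:118437294-118437593, minus strand): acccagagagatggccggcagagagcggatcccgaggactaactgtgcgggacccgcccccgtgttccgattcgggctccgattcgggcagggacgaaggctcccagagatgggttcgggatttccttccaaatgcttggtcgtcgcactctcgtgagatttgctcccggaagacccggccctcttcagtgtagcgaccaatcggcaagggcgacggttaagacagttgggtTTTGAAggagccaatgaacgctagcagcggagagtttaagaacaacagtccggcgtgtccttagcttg
Plk1 (chr7:122159185-122159484, plus strand): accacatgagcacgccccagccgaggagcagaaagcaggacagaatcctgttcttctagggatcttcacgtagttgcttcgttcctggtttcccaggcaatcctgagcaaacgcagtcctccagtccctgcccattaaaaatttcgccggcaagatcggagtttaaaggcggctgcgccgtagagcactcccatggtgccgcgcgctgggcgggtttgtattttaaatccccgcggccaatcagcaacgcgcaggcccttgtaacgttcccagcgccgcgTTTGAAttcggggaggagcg
Of 23 mitotic genes with a RefSeq promoter, 17 (73.9%) held these letters, against 3 of 30 DNA replication genes and 20.2% of all 27025 genes (1504 of 10731 measured genes). Within the mitotic list the members with a match had a median difference of -1.58 (17 genes) and those without one -1.27 (6 genes). The E2F letters TTTCCCGC or TTTGGCGC stood in 10 of 30 DNA replication promoters (33.3%), against 1.8% of all genes and 3.31% of the measured genes. A match is a description of the letters in this window and not of a bound site. Apart from the CArG box, which can hold CCAAT, none of the strings searched contains another.

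Targets of ERK, the kinase at the end of the MAP kinase cascade that carries growth factor signals, were lower by a wide margin. The list of ERK output and feedback genes was drawn up after some of these values had been seen. Of 20 above the floor 15 were lower and 2 higher, with a median of -2.31. In 12 of the 20 the Nanog KO array had the lowest value of the 7, against 21.0% of all genes above the floor. Of the 20, 18 passed the floor on the WT + DOX array and 8 on the Nanog KO array. Etv5 had 5.01 in Nanog KO fibroblasts and 10.30 in WT MEFs + DOX. It had 8.85 in WT MEFs without DOX, 9.66 and 8.53 in the libraries labelled Utx KO MEFs without and with DOX, and 11.41 and 11.59 in WT and Utx KO ESCs. The phosphatase Dusp6, which switches ERK off again, had 5.04 in Nanog KO fibroblasts, 8.62 in WT MEFs + DOX, 9.41 in WT MEFs without DOX, 8.69 and 8.51 in the libraries labelled Utx KO MEFs without and with DOX, and 8.76 and 9.31 in WT and Utx KO ESCs. Both genes were above the floor on 6 arrays and under it on the Nanog KO array. Spry4, an inhibitor of receptor tyrosine kinase signalling, had 5.51 in Nanog KO fibroblasts and 10.28 in WT MEFs + DOX, and Phlda1 had 5.55 and 10.46. The phosphatase Dusp4 was at least 6.10-fold lower. Il17rd, an antagonist of FGF signalling, went the other way at 8.46 against 7.03, and so did the ephrin receptor Epha4 at 7.77 against 5.92.

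**Figure D4:**
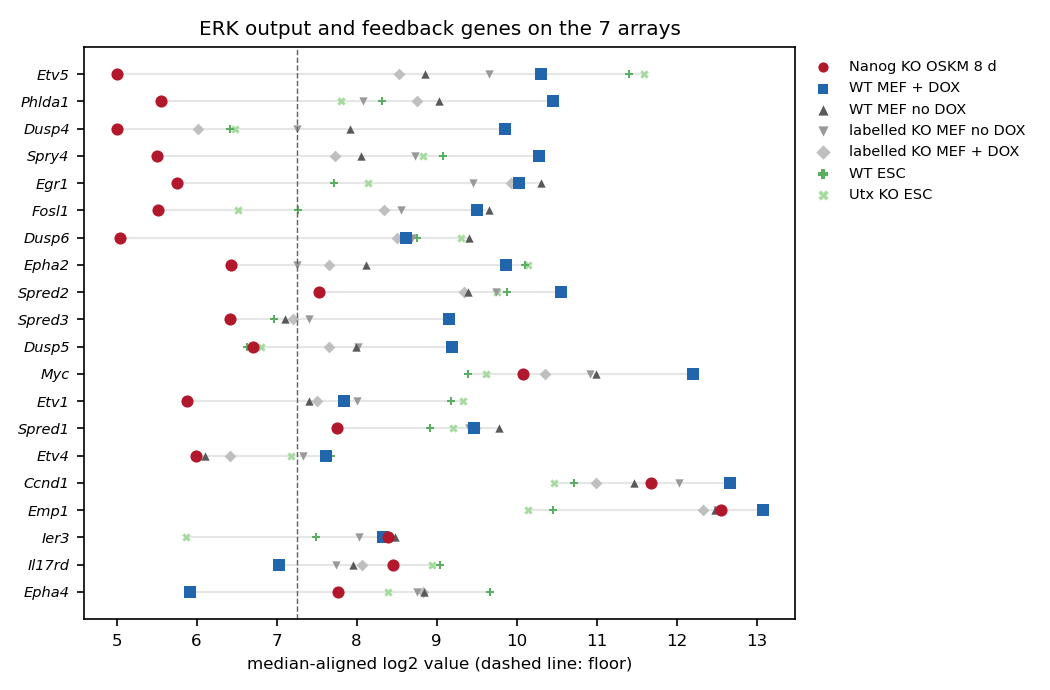
Median-aligned log2 values of the 20 ERK output and feedback genes above the floor on each of the 7 arrays, with red circles for Nanog KO OSKM fibroblasts and blue squares for WT MEFs + DOX. The dashed line is the floor of 7.25, and genes run from Etv5 (difference -5.29) at the top to Epha4 (1.85) at the bottom.

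Immediate early genes, which respond within minutes to serum and growth factors, were lower with them. Of 25 above the floor 16 were lower and 0 higher, with a median of -1.46, and this list too was added after the data had been seen. It shares at least Dusp4 with the ERK list. Egr1 had 5.76 in Nanog KO fibroblasts, 10.03 in WT MEFs + DOX and 10.31 in WT MEFs without DOX. The orphan nuclear receptor Nr4a1 had 7.52, 11.51 and 9.73 in that order, and the AP-1 subunit Fosl1 had 5.52, 9.50 and 9.66. Atf3 and Ier3 were within 2-fold, with differences of 0.30 and 0.07.

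The FGF axis was mixed, with 5 of 15 higher, 8 lower and a median of 0.20. The lower members included Etv5, Spry4 and Dusp6, which the ERK output and feedback list also holds and which are no separate result. Receptors and ligands lay on both sides. The receptor Fgfr2 had 8.55 in Nanog KO fibroblasts and 5.47 in WT MEFs + DOX, the ligand Fgf9 had 8.43 and 5.58, and Fgf2 was at least 1.29-fold higher. The receptor Fgfr3, named after its values were seen, had 6.30 in Nanog KO fibroblasts and 7.98 in WT MEFs + DOX, and the ligand Fgf4 had 5.92 and 9.21. The decoy receptor Fgfrl1 was 2.77-fold higher. Fgfbp1, a carrier that releases FGFs from the matrix and is expressed in epidermis, was at least 7.32-fold lower, at 4.94 against 10.12.

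Cholesterol synthesis genes were lower almost throughout. Of 19 measured, all above the floor, 16 were lower and 0 higher, with a median of -1.75. In 13 the Nanog KO array had the lowest value of the 7, against 21.0% of all genes above the floor. Msmo1, a sterol methyl oxidase, had 7.48 in Nanog KO fibroblasts, 11.18 in WT MEFs + DOX, 9.53 in WT MEFs without DOX, 9.49 and 10.08 in the libraries labelled Utx KO MEFs without and with DOX, and 9.39 and 9.80 in WT and Utx KO ESCs. The WT + DOX array was thus the highest and the Nanog KO array the lowest. Cyp51, the lanosterol demethylase, was at least 5.06-fold lower, the sterol reductase Tm7sf2 at least 4.53-fold and the sterol sensor partner Insig1 5.70-fold. Dhcr7 and Mvk were within 2-fold at -0.25 and -0.34. Without alignment the median was -1.02. All 16 members with a promoter in the table held the letters CCAAT on either strand, against 41.1% of all genes and 42.2% of the measured genes, and so did 17 of 23 mitotic genes. The RefSeq promoter of Msmo1, the member with the largest difference, is shown with these letters in capitals.
Msmo1 (chr8:64733529-64733828, minus strand): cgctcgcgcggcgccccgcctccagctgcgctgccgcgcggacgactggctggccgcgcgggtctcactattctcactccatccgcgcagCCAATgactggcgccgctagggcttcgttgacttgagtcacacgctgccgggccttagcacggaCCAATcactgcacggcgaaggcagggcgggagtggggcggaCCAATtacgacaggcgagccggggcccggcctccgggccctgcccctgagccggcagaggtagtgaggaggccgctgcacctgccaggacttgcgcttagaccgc

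Macrophage genes formed part of the higher side. Of 14 macrophage and monocyte genes above the floor (41 measured) 11 were higher and 1 lower, with a median of 1.59. Lysozyme (Lyz2) had 10.76 in Nanog KO fibroblasts, 4.88 in WT MEFs + DOX, 12.06 in WT MEFs without DOX and 10.55 in the library labelled Utx KO MEFs with DOX. Adgre1, which encodes the macrophage antigen F4/80, had 9.30 in Nanog KO fibroblasts, 4.18 in WT MEFs + DOX and 9.92 in WT MEFs without DOX. The signalling adaptor Fcer1g had 9.88, 5.36 and 11.18 in that order. These genes were therefore present in both the Nanog KO and the untreated MEF arrays. Of 13 defining markers, 7 were above the floor in Nanog KO fibroblasts with a mean of 8.14, against 1 (Cd68) in WT MEFs + DOX with a mean of 5.45 and all 13 in WT MEFs without DOX with a mean of 9.64. Ptprc, Csf1r, Cd14, Mpeg1, Itgam and Spi1 were under the floor in Nanog KO fibroblasts. Siglec1 was at least 1.55-fold lower and Cd68 within 2-fold. Of the 14 genes above the floor 13 passed it on the Nanog KO array and 3 on the WT + DOX array.

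Complement genes were higher, with 8 of 11 above the floor higher, 0 lower and a median of 2.37. C4b, a component of the classical pathway, had 8.67 in Nanog KO fibroblasts, 4.36 in WT MEFs + DOX and 5.39 in WT MEFs without DOX. The classical pathway protease C1ra had 9.24, 5.23 and 5.81 in that order, and Masp1 of the lectin pathway had 10.53, 6.73 and 9.25. C3ar1, the receptor for the C3a fragment and a gene of macrophages, had 9.27, 4.49 and 10.43. For C4b and C1ra, unlike C3ar1, the Nanog KO value also exceeded that of WT MEFs without DOX. Cd55 and clusterin (Clu) were within 2-fold. The part of the macrophage markers in these differences was not tested.

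Interferon-stimulated genes, which cells switch on to resist viruses, were higher. Of 32 antiviral effectors above the floor (37 measured) 18 were higher and 0 lower, with a median of 1.29. Of the 32, 21 had their highest value of the 7 arrays in Nanog KO fibroblasts, against 17.4% of all genes above the floor. All 32 passed the floor on the Nanog KO array and 17 on the WT + DOX array, so this count carries no weight of its own. Trim30a, a TRIM protein of mouse immune cells, had 9.69 in Nanog KO fibroblasts and 4.53 in WT MEFs + DOX. It had 7.82 in WT MEFs without DOX, 5.15 and 6.10 in the libraries labelled Utx KO MEFs without and with DOX, and 4.17 and 4.24 in WT and Utx KO ESCs. Ifit3, which binds foreign RNA in a complex with its relatives, had 8.09 in Nanog KO fibroblasts, 4.04 in WT MEFs + DOX and 7.91 in WT MEFs without DOX. The nuclear body protein Sp100 had 8.12, 4.20 and 7.0 in that order, and Oasl2, of the oligoadenylate synthetase family, had 9.97, 6.07 and 8.29. Apobec3, a cytidine deaminase, and the exonuclease Isg20 were within 2-fold, with differences of -0.55 and -0.45. The WT MEFs without DOX came next to the Nanog KO array for Ifit3, and that array also held the most macrophage markers. The part of those markers in the difference was not tested.

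**Figure D5:**
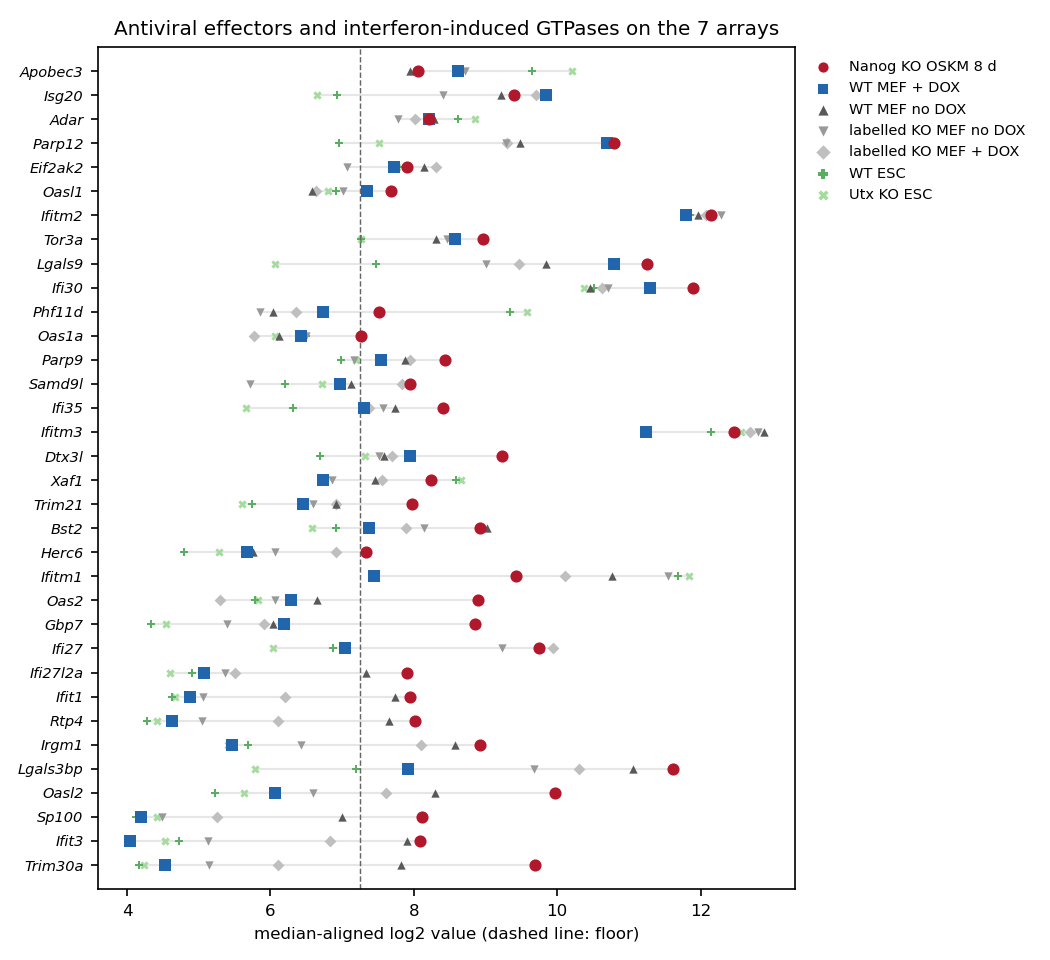
Median-aligned log2 values of the antiviral effectors and interferon-induced GTPases above the floor on each of the 7 arrays, with red circles for Nanog KO OSKM fibroblasts and blue squares for WT MEFs + DOX. The dashed line is the floor of 7.25; genes run from Apobec3 (difference -0.55) at the top to Trim30a (5.16) at the bottom.

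Upstream and downstream steps of the interferon pathway differed less evenly. Of the receptors, Ifnar2 of the type I interferon receptor had 10.96 in Nanog KO fibroblasts and 9.62 in WT MEFs + DOX, and Ifngr2 of the type II receptor had 11.03 and 9.36. Ifnar1, Ifngr1 and Il10rb were within 2-fold, so 2 of 5 receptor genes above the floor were higher and 0 lower. Of 16 nucleic acid sensors and adaptors above the floor 9 were higher and 1 lower, with a median of 0.95. Ifih1, the sensor MDA5 of long double-stranded RNA, had 8.17 against 6.12, and Sting1, the adaptor of cytosolic DNA sensing, had 9.37 against 6.94. Ifi203 and Ifi205, neighbours of a near-identical family, were at least 3.20-fold and at least 2.72-fold higher. The DNA sensor Aim2 was at least 2.96-fold lower, at 6.09 against 8.82. Of 13 interferon transcription factors and brakes 5 were higher and 0 lower, with a median of 0.37. Usp18, which removes ISG15 from proteins and dampens the receptor, had 9.68 in Nanog KO fibroblasts and 6.20 in WT MEFs + DOX, and Irf7 had 8.51 and 6.26. Irf2 and Jak2 lay at -0.93 and -0.90.

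The interferon-induced GTPases, which act on membranes around pathogens, were few on this array. Irgm1 had 8.93 in Nanog KO fibroblasts, 5.46 in WT MEFs + DOX and 8.58 in WT MEFs without DOX. Gbp7 had 8.85, 6.19 and 6.03 in that order. Gbp3 and Gbp9 were under the floor on both arrays, at 7.24 against 4.67 and 6.64 against 5.11. Irgm1 and Gbp7 passed the floor on the Nanog KO array alone, so their count carries no weight of its own. Promoters of Irgm1, Gbp7, Trim30a and Ifit3 are shown, chosen because they hold the core letters of the interferon-stimulated response element (ISRE). These letters are GAAA, any 2 bases (N) and GAAA again, searched on both strands and shown in capitals. Sp100 and Oasl2, next in size among the antiviral effectors with differences of 3.92 and 3.89, held no match. RefSeq gives 2 promoters for Trim30a, of which 1 is shown.
Trim30a (chr7:104465144-104465443, minus strand): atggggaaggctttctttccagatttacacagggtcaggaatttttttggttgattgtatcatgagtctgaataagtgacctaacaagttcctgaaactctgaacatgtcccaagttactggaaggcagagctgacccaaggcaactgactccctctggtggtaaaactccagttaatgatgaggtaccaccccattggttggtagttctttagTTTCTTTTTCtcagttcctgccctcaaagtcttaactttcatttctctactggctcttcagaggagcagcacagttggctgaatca
Ifit3 (chr19:34583279-34583578, plus strand): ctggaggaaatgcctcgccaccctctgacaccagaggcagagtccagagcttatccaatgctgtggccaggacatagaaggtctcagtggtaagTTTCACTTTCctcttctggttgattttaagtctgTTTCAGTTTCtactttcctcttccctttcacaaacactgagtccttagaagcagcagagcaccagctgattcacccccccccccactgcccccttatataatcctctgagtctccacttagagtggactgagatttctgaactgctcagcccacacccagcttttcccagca
Irgm1 (chr11:48871371-48871670, minus strand): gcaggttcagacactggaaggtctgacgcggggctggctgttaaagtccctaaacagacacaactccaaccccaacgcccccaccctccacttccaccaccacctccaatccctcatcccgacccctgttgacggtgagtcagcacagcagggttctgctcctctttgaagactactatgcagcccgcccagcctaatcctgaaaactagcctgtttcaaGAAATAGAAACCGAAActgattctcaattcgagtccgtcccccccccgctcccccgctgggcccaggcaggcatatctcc
Gbp7 (chr3:142530086-142530385, plus strand): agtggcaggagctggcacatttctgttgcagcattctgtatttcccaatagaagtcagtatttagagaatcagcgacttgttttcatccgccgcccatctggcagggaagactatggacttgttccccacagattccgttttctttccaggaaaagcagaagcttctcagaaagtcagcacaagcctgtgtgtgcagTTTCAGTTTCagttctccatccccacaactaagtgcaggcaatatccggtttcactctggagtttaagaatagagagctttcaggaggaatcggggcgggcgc
In Irgm1 the capitals hold 2 overlapping matches. The letters stood in 11 of 29 antiviral effectors with a promoter (37.9%), in 3 of 3 GTPases and in 3 of 11 antigen processing genes (27.3%), against 3.99% of all 27025 genes and 3.4% of the measured genes. Antiviral effectors with the letters had a median difference of 1.23 (11 genes) and those without them 1.29 (18 genes).

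Antigen processing genes were higher in part. Of 12 above the floor (15 measured) 7 were higher and 0 lower, with a median of 1.05. In 9 of the 12 the Nanog KO array had the highest value of the 7, against 17.4% of all genes above the floor. All 12 passed the floor on the Nanog KO array and 6 on the WT + DOX array. Tap1, a chain of the peptide transporter that loads MHC class I, had 9.28 in Nanog KO fibroblasts, 6.22 in WT MEFs + DOX and 7.56 in WT MEFs without DOX. The immunoproteasome subunit Psmb9 had 8.65, 6.68 and 7.05 in that order, and Psmb8 had 7.36, 4.85 and 6.95. The class I gene H2-Q4 had 9.01 against 5.39, in a family whose members share sequence. Beta-2 microglobulin (B2m) and Tapbp were within 2-fold. Of 10 chemokines and cytokines above the floor 7 were higher and 2 lower (median 0.73), with Ccl3 at 8.64 against 4.61 and Ccl5 at 8.59 against 5.93. Both were higher still in WT MEFs without DOX, at 10.93 and 10.69. The growth factor of macrophages Csf1 had 8.81 in Nanog KO fibroblasts and 5.96 in WT MEFs + DOX. Cxcl16 and the interleukin 1 antagonist Il1rn were at least 2.31-fold and at least 1.15-fold lower. Of 17 genes of the NF-kappaB pathway 4 were higher and 1 lower (median 0.20), led by the adhesion molecule Icam1 at 8.72 against 6.74, while Tnip1 was 3.72-fold lower.

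Growth factor and morphogen genes of mesenchyme were higher. Of 16 IGF axis genes 10 were higher and 2 lower, with a median of 1.87. Igf1 had 10.09 in Nanog KO fibroblasts, 5.0 in WT MEFs + DOX and 9.83 in WT MEFs without DOX, and Igf2 had 12.29, 9.41 and 12.35. The binding protein Igfbp5 and the protease Pappa, which cleaves IGF-binding proteins, were at least 10.1-fold and at least 3.33-fold higher. The adaptor Irs2 and the RNA-binding protein Igf2bp1 were at least 2.07-fold and 2.39-fold lower. Of 17 Wnt pathway genes and antagonists above the floor 11 were higher and 2 lower, with a median of 0.50. Wnt5a, a ligand of the non-canonical pathway, had 10.41 in Nanog KO fibroblasts, 5.54 in WT MEFs + DOX and 9.72 in WT MEFs without DOX. The secreted antagonists Sfrp2 and Sfrp4 had 9.45 against 5.40 and 9.76 against 5.52, both below the 11.84 and 11.52 of WT MEFs without DOX. The receptor Lgr5 was at least 3.36-fold higher, while Notum and Wnt4 were at least 1.08-fold and at least 1.94-fold lower.

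The TGF-beta and BMP pathway was mixed, with 8 of 32 higher, 6 lower and a median of 0.18. Bmp7, a BMP ligand, had 10.44 in Nanog KO fibroblasts and 6.65 in WT MEFs + DOX. On the remaining 5 arrays it lay between 6.0 in WT MEFs without DOX and 8.63 in WT ESCs, so the Nanog KO value was the highest. Bmp2 had 5.48 in Nanog KO fibroblasts and 8.52 in WT MEFs + DOX, with 5.44 in WT MEFs without DOX. Id1, a target of BMP signalling, was 4.48-fold lower, and the co-receptor Tgfbr3 at least 6.76-fold higher.

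Imprinted genes were higher in the main, with 10 of 18 above the floor higher, 2 lower and a median of 1.70. Plagl1, a zinc finger factor of an imprinted gene network, had 11.63 in Nanog KO fibroblasts, 6.55 in WT MEFs + DOX and 10.14 in WT MEFs without DOX. The non-coding RNA Meg3 had 10.75, 6.70 and 11.35 in that order, and Dlk1, from the same imprinted domain, had 11.16, 7.28 and 11.74. For both, the WT + DOX array was low and the Nanog KO array near the untreated MEFs. Phlda2, a regulator of placental growth, had 5.79 in Nanog KO fibroblasts, 11.05 in WT MEFs + DOX and 5.70 in WT MEFs without DOX. Peg10, a gene derived from a retrotransposon, had 7.25 in Nanog KO fibroblasts and 10.25 in WT MEFs + DOX, and at least 10.14 on each of the 5 remaining arrays. Zfp57, which guards imprints in ESCs, had 8.06 in Nanog KO fibroblasts, 11.98 in WT MEFs + DOX and 9.65 in WT MEFs without DOX.

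Genes known as barriers to reprogramming were mixed. Of 22 p53 targets and senescence genes above the floor 9 were higher (40.9%) and 5 lower (22.7%), with a median of 0.27. The shares of all genes were 13.1% and 13.3%. Cdkn2a, the locus of the inhibitors p16 and ARF, had 8.57 in Nanog KO fibroblasts, 6.54 in WT MEFs + DOX and 7.01 in WT MEFs without DOX. The CDK inhibitor Cdkn1c, which is also imprinted, had 10.54, 6.67 and 8.80 in that order, and Cdkn2c was at least 1.11-fold higher. Hmga2, a chromatin protein of growing cells, was 6.17-fold lower, at 7.63 against 10.25, and Perp, a p53 target of desmosomes, was 5.29-fold lower. Of 12 Hox genes above the floor (27 measured) 4 were higher and 0 lower, with a median of 0.23. Hoxc8 had 10.16 in Nanog KO fibroblasts, 7.77 in WT MEFs + DOX and 8.66 in WT MEFs without DOX, and Hoxc5 had 9.04, 7.13 and 7.58. Hoxa9 and Hoxa6 lay at -0.84 and -0.82.

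Chromatin regulators had list medians near that of all genes above the floor (-0.06). Of 19 regulators of H3K27 above the floor 0 were higher and 2 lower, with a median of -0.07. The lower share of 10.5% is near the 13.3% of all genes. Eed, a core subunit of the Polycomb methyltransferase PRC2, was 2.08-fold lower, at 7.48 against 8.54, and Pcgf2 of PRC1 was 2.06-fold lower. The demethylase Kdm6a (Utx) had 8.34 in Nanog KO fibroblasts and 8.93 in WT MEFs + DOX, a difference of -0.58, and its Y-linked relative Uty had 7.42 and 7.55. Of 12 DNA methylation enzymes 3 were higher and 2 lower (median 0.03), with Tet2 3.81-fold lower, at 8.51 against 10.44, beside the higher Tet1. Among sex-linked genes Xist, the RNA of the inactive X, had 12.04 and 10.90, while the Y-linked genes Eif2s3y and Kdm5d had 7.77 and 7.15 in Nanog KO fibroblasts, against 8.56 and 7.39 in WT MEFs + DOX. Ddx3y had no row with a symbol of its own.

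Housekeeping lists set the scale of these differences. None of 28 cytosolic ribosomal protein genes passed 2-fold in either direction, and their median was 0.27, from -0.33 for Rpl14 to 0.83 for Rpl22. Of 32 genes of the mitochondrial respiratory chain 1 was higher and 2 lower, with a median of -0.02, and the lower genes were cytochrome c (Cycs), by 2.51-fold, and Ndufa4, by 2.20-fold. Of 20 glycolysis genes 2 were higher and 4 lower, with a median of 0.27. The glucose transporters Slc2a1 and Slc2a3 were 4.51-fold and 6.18-fold lower, with 10.99 and 8.16 in Nanog KO fibroblasts, against 13.17 and 10.79 in WT MEFs + DOX.

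Some genes set the Nanog KO array apart from all 6 others and not from WT MEFs + DOX alone. By a rule added after values had been seen, 204 of 8809 genes above the floor on the Nanog KO array (2.32%) were at least 2-fold above each of the 6 others. Ptgds, a prostaglandin D synthase, had 11.71 in Nanog KO fibroblasts and 5.98 in WT MEFs + DOX, and between 5.89 and 6.58 on the remaining 5 arrays. Vsnl1, a neuronal calcium sensor, had 11.42 and 4.73 and at most 6.94 elsewhere. The GABA receptor subunit Gabra3 had 10.55 in Nanog KO fibroblasts and at most 6.25 on any other array, the neuropeptide receptor Npy1r 10.03 and at most 6.28. Alcohol dehydrogenase Adh1 (11.43), the transporter Slc13a3 (11.01), Itih5 (10.33), the protease inhibitor A2m (11.09), the oestrogen receptor Esr1 (9.73) and Gng13 (10.36) completed the 10 with the widest margins, of 3.54, 3.51, 3.45, 3.34, 3.22 and 3.15 in log2 value.

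Conversely, 118 of 6533 genes above the floor on all 6 other arrays (1.81%) were at least 2-fold below each of them in Nanog KO fibroblasts. Besides Etv5, Dusp6, Phlda1, Spry4, Peg10 and Cenpe, described above, the 10 with the widest margins held AI506816, Adam23, Adgre5 and Zdhhc2. AI506816 had 4.08 in Nanog KO fibroblasts and 9.50 in WT MEFs + DOX, and between 8.73 and 10.77 on the remaining 5 arrays. Adam23, a membrane protein of the ADAM family, had 5.41 and 9.05, and at least 9.77 elsewhere. Of these 10 genes, 4 (Etv5, Dusp6, Phlda1 and Spry4) belong to the ERK output and feedback list. Both that list and this rule were added after values had been seen, so the overlap is a description and supports nothing.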

How the data were processed

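Total RNA of 7 samples, 1 per condition, had been measured on Affymetrix arrays. The authors deposited log2 values for 21811 probe sets, made with RMA in Affymetrix Expression Console per the submitters' processing notes; no version or build is stated in the labels. The labels name a labelling kit for 3′ ends, whereas the probe set IDs are those of a whole-transcript array. RMA corrects background, equalises arrays run together and summarises probes, and the differing median of the Nanog KO array leaves unknown whether it was run with the others. No counts or depth exist for arrays, and 1 array per condition limits the precision.

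Each array was shifted to the median of the WT + DOX array. Rows with 1 gene symbol (14894; 925 had several and 5992 were not listed in the platform table) gave 13562 genes, by the row with the highest mean over 7 arrays (754 genes had several). Of these rows, 14854 had a gene ID in RefSeq, and 0 symbols were updated. The floor was the 40th percentile (7.25). A difference of 1 in log2 value or more, which is 2-fold, was counted, with no test. A fold with its lower side under the floor was computed against the floor.

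The members and lists were chosen with earlier results of these data known. Of 54 lists 45 came first and 9 were added after values had been seen: immediate early genes, prostaglandins, NRF2, endoplasmic reticulum, hypoxia, hedgehog, Notch, aldehyde dehydrogenases and ERK output. The CHR and CCAAT searches and the sets above or below all other arrays were added likewise. Named genes were the 10 largest differences each way with both arrays above the floor, the 10 largest bounds each way, the targeted gene, factors and sex-linked genes, up to 4 members per list along its median and 2 against it, defining markers, and members of the short lists. Motifs were searched in RefSeq promoters (GRCm38.p6). Alternatives were no alignment, quantile and intensity-dependent alignment, the mean over rows, other floors, higher thresholds and, added later, list medians over members above the floor. The code was tested on simulated data. No column of values was without a sample. Tables were made with pandas 2.3.3, numpy 2.4.6, statsmodels 0.14.6 and scipy 1.17.1, and plots with matplotlib 3.10.9, under Python 3.11.15.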

Additional observations from a re-analysis of the deposited data

How the results depend on the processing

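No paired analysis was possible because each condition had 1 array, and for the same reason no replicate could be left out. The count of higher and lower genes was 1281 and 1299. It was 4032 and 599 without alignment, 558 and 639 with both arrays required above the floor, 773 and 765 at a log2 threshold of 1.5, and 525 and 475 at a log2 threshold of 2. Quantile normalization gave 1351 and 1244, intensity-dependent alignment 1369 and 1213, the mean over rows 1277 and 1292, no floor 1550 and 1494, and a floor at the 60th percentile 899 and 977. Without alignment the median of all genes moved to 0.76, and the list medians moved with it: 0.27 for pluripotency, 2.38 for mesenchymal regulators, -1.74 for simple epithelial genes, 2.33 for macrophage genes, 2.03 for antiviral effectors, 0.60 for DNA replication, -0.73 for mitosis and -1.02 for cholesterol synthesis. Over members above the floor only, the medians were -1.06 for pluripotency and 3.33 for macrophage genes. For the macrophage list this follows from the selection, since 13 of the 14 members kept passed the floor on the Nanog KO array and 3 on the WT + DOX array. The median changed sign in 13 of 54 lists without alignment, in 2 with quantile normalization, in 3 with intensity-dependent alignment, in 1 with the mean over rows and in 7 over members above the floor.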

Other observations

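Lists outside the comparisons above were read in the same way, beside the 13.1% of genes higher and 13.3% lower. Prostaglandin genes held 6 higher and 2 lower of 11 above the floor, with a median of 1.03. Ptgs2, the inducible cyclooxygenase at the start of the pathway, had 8.92 in Nanog KO fibroblasts and 12.43 in WT MEFs + DOX, an 11.4-fold lower value. Some downstream enzymes went the other way and some were level. The prostacyclin synthase Ptgis had 10.48 in Nanog KO fibroblasts and 7.87 in WT MEFs + DOX, and Hpgd, which inactivates prostaglandins, had 9.17 and 4.62. The synthases Ptges2 and Ptges3, named after their values were seen, differed by 0.01 and -0.21. Of 15 aldehyde dehydrogenases above the floor 8 were higher and 3 lower (median 0.87). Aldh1a2 and Aldh1a3, which both make retinoic acid, lay in opposite directions, with 8.08 against 6.10 for Aldh1a2 and 7.39 against 9.74 for Aldh1a3. Of 28 lysosome genes 10 were higher and 1 lower (median 0.58), with the glucosaminidase Naglu at 9.69 against 7.81. Of 9 Notch pathway genes 0 were higher and 4 lower (median -0.48), with Notch1 at 7.59 against 9.16. Of 7 hedgehog genes 2 were higher and 1 lower (median 0.45): the co-receptor Gas1 had 9.07 against 6.35, and Ptch1, receptor and target of the pathway, 8.03 against 9.16.

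The stress lists had shares of higher genes near or below the 13.1% of all genes, and shares of lower genes below 13.3%. Of 26 NRF2 and glutathione genes 4 were higher and 1 lower (median -0.09), with the transferases Gstm1 at 10.95 against 7.68 and Gsta4 at 10.14 against 12.26. Of 29 endoplasmic reticulum genes 4 were higher and 1 lower (median -0.16), and of 16 hypoxia targets 1 was higher and 2 lower, with a median of 0.47 that is near the upper quartile of all genes (0.49). Markers of other tissues were few above the floor. Endothelial genes had 1 higher and 3 lower of 5 (median -0.30), neural genes 2 and 3 of 7 (0.02), skeletal and cardiac muscle genes 0 and 3 of 4 (0.30), adipose genes 2 and 4 of 8 (0.38), extraembryonic genes 3 and 2 of 5 (-0.25), germ cell genes 1 and 3 of 5 (-0.23), and other leukocyte genes 0 and 1 of 1 (-0.06). Tek, the angiopoietin receptor, had 11.27 in Nanog KO fibroblasts, 10.01 in WT MEFs + DOX and 6.44 in WT MEFs without DOX. Lpl, the lipase of adipose tissue and macrophages, had 9.65, 5.49 and 7.86 in that order. The adaptor Dab2 was 9.65-fold higher and the epithelial factor Elf5 at least 1.99-fold lower.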
